A study of Bos taurus with 8 samples.

Results

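The S100 calcium-binding proteins were followed in follicular aspirates of young Holstein heifers. The genes were S100A2, S100A4, S100A6, S100A8, S100A9, S100A10, S100A11, S100A12 and S100A14. Of these 9 genes 8 were among the 15216 that the platform annotation gives a probe. They were taken by symbol and had been chosen by their log2 ratios of the younger age over 14 months on these same arrays, so those ratios are given as a description, without p-values and with nothing read from counts of calls. The array held 9 probes for these 8 and none for S100A6, a calcium sensor known in human and mouse to bind CACYBP. A probe was kept if its signal cleared the negative controls in 3 or 4 heifers at any age, and 8 of the 9 probes did so, 1 for each of the 8 genes. The exception was a second S100A14 probe, above background in 1 heifer at 8 months and in 0 at 11 or 14 months.

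RNA came from 4 Holstein heifers, each aspirated at 8, 11 and 14 months after progesterone and FSH, and all ages were treated alike per the labels. On 4 arrays a heifer's RNA at 8 months was set against RNA of that heifer at 14 months, and on 4 others RNA taken at 11 months took the place of the 8-month RNA. Dyes were swapped between animals, so the younger RNA was labelled with Cy5 for heifers 1 and 2 but with Cy3 for the other two. The labels name granulosa cells, the somatic cells that line the follicle, whereas the submitters' design text names blastocysts, a conflict that was not settled. All 18 listed granulosa genes had a probe above background. FSHR, CYP19A1 and INHA were above background in every heifer at every age. FOXL2 was above it in 3, 1 and 2 heifers at 8, 11 and 14 months. The labels do not say whether both arrays of a heifer carried 1 extract of its 14-month RNA, nor do they name a slide or scan for each array.

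S100 proteins are small calcium sensors built around a pair of EF hands, and most work as dimers. Inside cells they bind targets such as annexins, myosin and the scaffold AHNAK when calcium rises. Some are released and act on receptors such as AGER and TLR4. The family is known for its restriction to cell types, mostly from human and mouse. S100A8, S100A9 and S100A12 mark neutrophils and monocytes, and S100A8 and S100A9 are also made by stressed stratified epithelium. S100A2 and S100A14 are epithelial, and S100A4, S100A10 and S100A11 are found in many cells. On the ARS-UCD2.0 assembly the 8 measured genes lie on 1 chromosome, where S100A8, S100A12 and S100A9 follow each other among the S100 genes and S100A11 and S100A10 lie side by side.

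The median probe intensity of a channel was 220 to 329, and the mean over its 153 negative control spots 163 to 297. The share of probes above background was 43.2% to 57.3%, and precision is limited by the number of arrays. Heifer 2 often differed from the other heifers, and motile cilia genes were high on certain arrays, so values with and without these are given where results rest on them. In aspirated material a change in the share of a cell type and a change in RNA per cell cannot be told apart.

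At 8 months 7 of the 8 measured genes had a mean log2 ratio above 0, led by the calprotectin pair S100A9 and S100A8. The higher ratios were not shared by all heifers, since heifer 2 had negative ratios for S100A8, S100A9, S100A2, S100A4, S100A10 and S100A12. S100A12, the myeloid calgranulin whose gene lies between those of S100A8 and S100A9, stayed near 0. At 11 months the mean ratios of the 8 genes lay between -0.56 for S100A2 and 0.63 for S100A11.

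**Figure D1:**
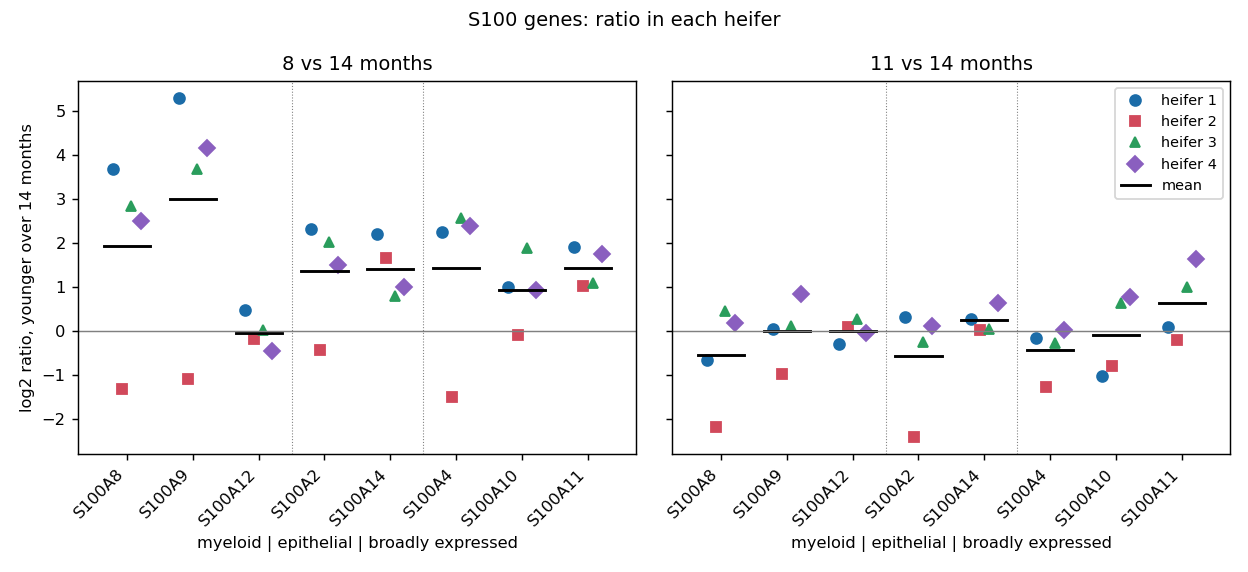
Log2 ratio of the younger age over 14 months (y axis) for the 8 measured S100 genes (x axis), at 8 months on the left and at 11 months on the right. Each point is 1 heifer and each bar the mean of 4. At 8 months S100A9 lies between 3.68 and 5.30 in heifers 1, 3 and 4 and at -1.10 in heifer 2, and at 11 months it lies between -0.98 and 0.84.

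S100A9, a subunit of the antimicrobial calprotectin, had log2 ratios of 5.30, -1.10, 3.68 and 4.17 in heifers 1 to 4 for 8 over 14 months. The mean was 3.01 ± 2.82 (SD, n = 4). Its log2 probe level, which is the normalised intensity of 1 channel, was 13.95, 8.69, 12.81 and 13.59 at 8 months in heifers 1 to 4. Against this, it was 8.65, 9.78, 9.14 and 9.43 at 14 months on the same arrays. The 8-month samples of heifers 1, 3 and 4 stood above every 14-month sample, while that of heifer 2 lay among them. For 11 over 14 months the ratios were 0.04, -0.98, 0.11 and 0.84, with a mean of 0.00 ± 0.75 (SD, n = 4). The 11-month levels of S100A9, from 8.66 to 9.97, overlapped those at 14 months, which lay between 8.62 and 9.89 on the same arrays.

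S100A8, the partner of S100A9, went the same way with smaller ratios, at 3.69, -1.33, 2.84 and 2.50 for 8 over 14 months (mean 1.92 ± 2.23, SD, n = 4). Its 8-month levels were 12.32, 10.68, 11.70 and 12.26. Its 14-month levels on those arrays were 8.63, 12.01, 8.87 and 9.76. In heifer 2, then, the 8-month level was the lowest of 4 and the 14-month level the highest of 4. At 11 months the S100A8 ratios were -0.66, -2.19, 0.46 and 0.19 (mean -0.55 ± 1.19, SD, n = 4), lowest again in heifer 2. S100A8 and S100A9 had the same sign on 7 of 8 arrays and differed by 0.91 on average.

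S100A12, a granulocyte protein and ligand of AGER, did not go with them. Its ratios were 0.47, -0.18, 0.02 and -0.45 for 8 over 14 months and -0.30, 0.08, 0.27 and -0.05 for 11 over 14 months. Its signal was dim, with levels from 7.55 to 8.32 at 8 months, and it was above background in 3, 2 and 4 heifers at 8, 11 and 14 months. Its mean absolute distance from S100A9 over 8 arrays was 2.06 on the log2 scale, the widest among the 28 pairs of genes. The values of S100A12 thus lie close to background at every age.

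Among epithelial genes, S100A2 and S100A14 differed from each other in the animal that stood apart. S100A2, a protein of basal keratinocytes, had ratios of 2.32, -0.43, 2.03 and 1.51 for 8 over 14 months (mean 1.36 ± 1.24, SD, n = 4). Its 8-month level was almost the same in all heifers, at 11.85, 12.04, 11.88 and 12.00. On these arrays the spread came from 14 months, where it stood at 9.53, 12.47, 9.85 and 10.49. On the arrays with 11 months the same 14-month levels read 9.61, 13.03, 11.53 and 12.22. By that reading heifer 3 at 14 months lay close to its 8-month level and heifer 4 above its own. At 11 months its ratios were 0.32, -2.41, -0.25 and 0.10, and the level of heifer 2 was 10.62 at 11 months against 13.03 at 14 months. The 14-month level of heifer 2 was the highest of 4 on both arrays for S100A2 and for S100A9. Its 8-month level was the lowest of 4 for S100A9 but not for S100A2.

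S100A14, a protein of epithelial cell contacts and migration, was higher at 8 than at 14 months in all 4 heifers, at 2.20, 1.67, 0.80 and 0.99 (mean 1.41 ± 0.64, SD, n = 4). Its levels were 10.51, 9.59, 9.25 and 9.75 at 8 months, against 8.31, 7.92, 8.45 and 8.76 at 14 months, with no overlap between these groups. For 11 over 14 months the ratios were 0.27, 0.02, 0.04 and 0.63 (mean 0.24 ± 0.28, SD, n = 4), again above 0 in each heifer but mostly small. Its second probe, which was near background, gave ratios between 0.20 and 0.43 at 8 months.

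**Figure D2:**
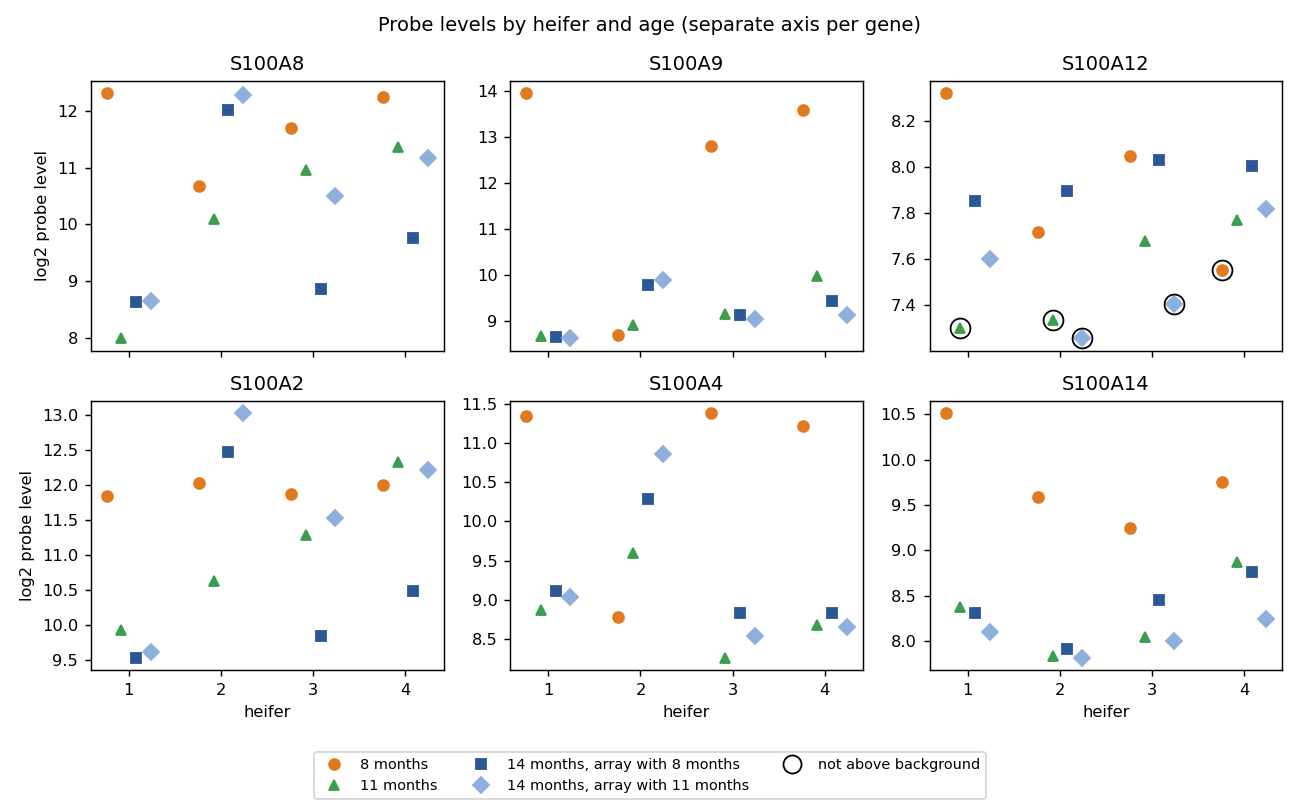
Log2 probe level (y axis, its own scale for each gene) by heifer (x axis) at 8, 11 and 14 months, with both 14-month arrays of each heifer shown and rings around values not above background. S100A9 at 8 months stands at 12.81 to 13.95 in heifers 1, 3 and 4 and at 8.69 in heifer 2, and S100A2 at 8 months lies between 11.85 and 12.04 in all 4.

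Levels are less firm than ratios, since a ratio compares channels of 1 array and a level is set across arrays. The 14-month level of a heifer was read on both of its arrays. For S100A9 these readings differed by 0.03, 0.11, 0.10 and 0.31 in heifers 1 to 4. For S100A2 the readings differed by 0.08, 0.56, 1.68 and 1.73, and for S100A8 by 0.02, 0.27, 1.63 and 1.41, each time higher on the array with 11 months where the gap was above 1. In heifers 3 and 4 the 14-month levels of S100A2 and S100A8 are therefore known only to within such a gap, and the cause was not tested.

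Of the broadly expressed members, S100A4, which binds non-muscle myosin and is known in motile cells and leukocytes, had ratios of 2.24, -1.51, 2.56 and 2.39 for 8 over 14 months (mean 1.42 ± 1.96, SD, n = 4). Its levels were 11.35, 8.78, 11.38 and 11.22 at 8 months, against 9.11, 10.29, 8.82 and 8.83 at 14 months. Heifer 2 was thus the lowest of 4 at 8 months and the highest of 4 at 14 months. At 11 months the S100A4 ratios were -0.17, -1.27, -0.28 and 0.03. The shortest mean absolute distances among the 28 pairs were those of S100A4 from S100A2 and from S100A8, 0.54 each over 8 arrays.

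S100A11, the partner of annexin A1, was higher at 8 than at 14 months in all heifers, at 1.90, 1.01, 1.08 and 1.74 (mean 1.44 ± 0.45, SD, n = 4). Its level in heifer 2 was the highest of 4 at both ages, at 15.95 at 8 months against 14.94 at 14 months. For 11 over 14 months S100A11 stood at 0.08, -0.21, 1.01 and 1.64 (mean 0.63 ± 0.85, SD, n = 4). S100A10, the annexin A2 partner that has lost calcium binding and helps plasminogen reach the cell surface, had ratios of 0.99, -0.10, 1.88 and 0.93 for 8 over 14 months. At 11 months it split the animals, with -1.02 and -0.79 in heifers 1 and 2 and 0.63 and 0.78 in heifers 3 and 4. That split also separates the dye orientations of the arrays, so heifer and dye cannot be told apart for S100A10 at 11 months.

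The fit across all genes, with terms for both comparisons and for dye and with the heifer as a random block in limma, called S100A11 and S100A14 at 8 months, 2 of 8 members at an adjusted p under 0.05. It called 3.85% of 10201 genes as higher at 8 months and 4.64% in either direction. The ratio was above 0 in all 4 heifers for these 2 members, against 17.4% of genes. Since the members were proposed from this contrast, nothing is read from these counts. They also depended on single animals. Without heifer 2 the fit called 6 members and 7.49% of all probes, with S100A9 at 4.46, S100A4 at 2.38, S100A8 at 3.01 and S100A2 at 2.03 besides S100A11 and S100A14. Without heifer 1 it called 1, S100A14, with 5.51% of probes. It called 0 members without heifer 3 and without heifer 4, where 0% and 0.159% of all probes were called, so these 0 counts are not particular to the members. At 11 months limma called 0 of 8 members and 0 of 10201 genes (0%), with 756 genes at an unadjusted p under 0.05. Only S100A14 had a ratio above 0 in all 4 heifers there, against 7.21% of genes.

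Epithelial and myeloid members were compared by their medians. At 8 months the epithelial median (S100A2 and S100A14) was 1.39 and the myeloid median (S100A8, S100A9 and S100A12) 1.92, a difference of -0.54 on the log2 scale. By heifer the epithelial minus myeloid difference was -1.43, 1.71, -1.42 and -1.25, so heifers 1, 3 and 4 had the higher ratios in myeloid members and heifer 2 in epithelial members. With an SD of 1.54 over heifers the difference was smaller than the spread between animals, and the myeloid median hides that S100A12 was near 0. At 11 months the medians were -0.16 for epithelial and 0.00 for myeloid members, and the differences by heifer were 0.59, -0.21, -0.38 and 0.18. The 11-month myeloid median was the value of S100A12, as it also was within heifers 1 and 3. The S100A12 probe was dim and above background in only 2 heifers at that age, so this difference rests on signal near background. Over all genes the median log2 change was 0.01 at 8 months and -0.01 at 11 months.

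Both comparisons are set against 14-month RNA of the same heifers. The 8-month ratio minus the 11-month ratio of S100A9 was 5.26, -0.11, 3.56 and 3.32 in heifers 1 to 4. For S100A2 it was 2.00, 1.98, 2.28 and 1.40, but this rests in part on the gaps of 1.68 and 1.73 between the 14-month readings of heifers 3 and 4. The levels of S100A2 themselves were 11.88 at 8 months and 11.28 at 11 months in heifer 3, and 12.00 at 8 months and 12.32 at 11 months in heifer 4. For S100A10 in heifer 4 and for S100A11 in heifers 3 and 4 the difference of ratios was likewise positive while the level was higher at 11 than at 8 months. S100A8 and the kept probe of S100A14 were higher at 8 than at 11 months in all 4 heifers by both readings. The ages lay on different arrays, so these differences cannot be told apart from ones between the array sets.

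Genes with ratios most like those of S100A9 were sought among 10201 genes by the mean absolute difference of the log2 ratio over 8 arrays, which in pairs were set against 14-month RNA of 1 heifer. They were GJB2, a connexin, at 0.55, KRT17 at 0.59, A2ML1, a protease inhibitor of stratified epithelium, at 0.64, KRT14 at 0.78 and S100A8 at 0.91. KRT17 and KRT14 are keratins of basal and stressed stratified epithelium. For 8 over 14 months KRT17 stood at 4.26, -0.17, 2.87 and 4.16 in heifers 1 to 4 and GJB2 at 4.62, -0.85, 2.18 and 3.66. S100A8 is itself a myeloid member. No gene of the leukocyte marker lists was among these 5, but those lists held only 16 and 10 of the 10201 genes. Nothing is therefore read from their absence. For S100A2, the epithelial member with the widest range, the nearest were SLC35C1 (0.51), S100A4 (0.54), HS3ST1 (0.54), FMNL1 (0.54) and MRPL12 (0.56). FMNL1 is a formin known from blood cells, SLC35C1 transports GDP-fucose and HS3ST1 sulphates heparan.

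**Figure D3:**
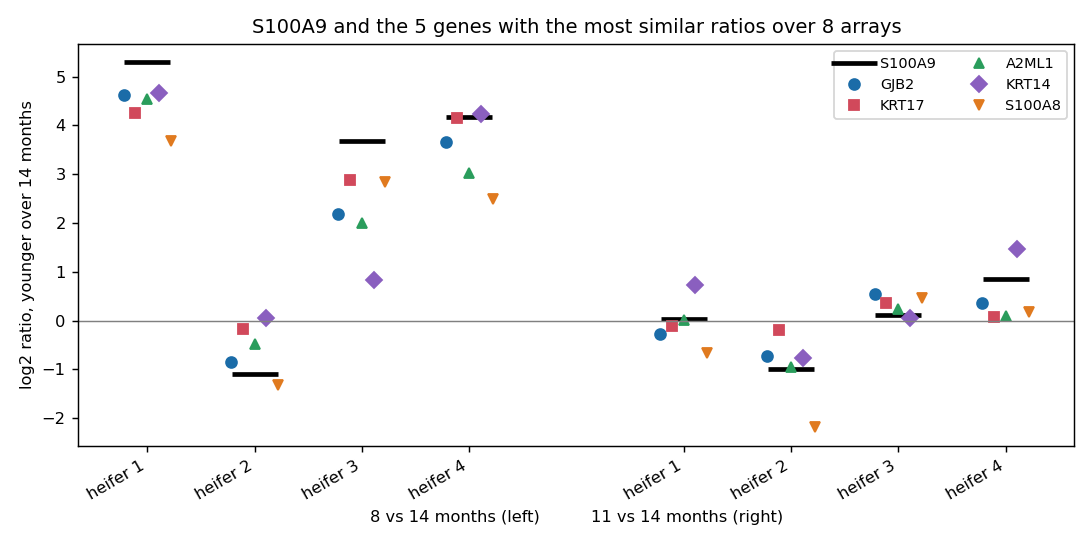
Log2 ratio of the younger age over 14 months (y axis) on each of the 8 arrays (x axis) for S100A9 (black bars) and the 5 genes with the smallest mean absolute difference from it. All 6 genes lie above 0 in heifers 1, 3 and 4 at 8 months, and KRT14 falls furthest short of S100A9 in heifer 3, at 0.82 against 3.68.

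Some marker lists of other cells moved along with these genes and others went the other way. Their part in the S100 values was not tested. For stratified squamous epithelium 18 of 32 listed genes were measured, with a median of 2.21 for 8 over 14 months. Of these 18 genes 9 were called as higher, against 3.85% of all genes. The medians were 3.26, 0.30, 1.70 and 3.15 in heifers 1 to 4. Heifer 2, the animal with the negative S100A9 ratio, had the lowest of these. The summed level of the list ran from 39347 to 207729 intensity units at 8 months, from 18388 to 35014 at 11 months and from 17794 to 34734 at 14 months. KRT5 was above background in 4, 1 and 1 heifers at 8, 11 and 14 months, TP63 in 2, 2 and 3, and DSG3 in 1, 0 and 1. For 8 over 14 months KRT5 stood at 2.64, 1.18, 2.25 and 3.17 in heifers 1 to 4. TP63 did not follow the list, at 0.04, -0.58, -0.17 and -0.002. A probe could be kept through 1 age alone, so KRT5 entered the list through its signal at 8 months. Genes kept that way count in the list median and its calls, while genes dim at every age do not.

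For simple and glandular epithelial genes the 8 over 14 months medians by heifer were 3.19, 1.97, 1.18 and 0.80, in the same order of animals as S100A14 except that heifers 3 and 4 change places. All 12 measured of 16 listed genes had a fitted change above 0, and 5 were called as higher. Over all genes 5208 of 10201 were above 0 and 3.85% were called as higher. Their summed level ran from 97389 to 222657 at 8 months, from 46829 to 214013 at 11 months and from 37633 to 105345 at 14 months. EPCAM and KRT8 were above background in every heifer at each age, and CDH1 in none.

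Neutrophil and monocyte markers were of mixed direction. Of 16 measured among 26 listed genes, 12 had a fitted change below 0 at 8 months and 0 were called, with a median of -0.48 and medians of 0.61, -1.81, 0.01 and -0.27 in heifers 1 to 4. Over all genes 4993 of 10201 were below 0 and 4.64% were called. Their summed level ran from 9729 to 24878 at 8 months, from 10915 to 19084 at 11 months and from 16305 to 65576 at 14 months. The 4 genes above 0 were CYBA, an oxidase subunit also found outside leukocytes, at 0.98, CORO1A at 0.63, CD14 at 0.35 and LCN2 at 0.02. Of the defining markers, PTPRC, the pan-leukocyte CD45 gene, stood at -0.45, -0.97, -2.96 and -2.24, and CD68 at -0.21, -1.94, -0.84 and -1.42. The ITGAM probe was above background in no heifer, and CSF3R had no probe. Lymphocyte genes had a median of -0.40 over 10 of 15 genes, with CD79A above background in none and CD3E in all. Their summed level ran from 5358 to 9487 at 8 months, from 5129 to 10659 at 11 months and from 7750 to 22731 at 14 months. In heifer 2 leukocyte medians were lowest for both comparisons, as were the ratios of S100A8, S100A9, S100A2 and S100A4. This was not particular to leukocyte lists, since at 8 months heifer 2 also had the lowest squamous (0.30) and granulosa (-1.11) medians.

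**Figure D4:**
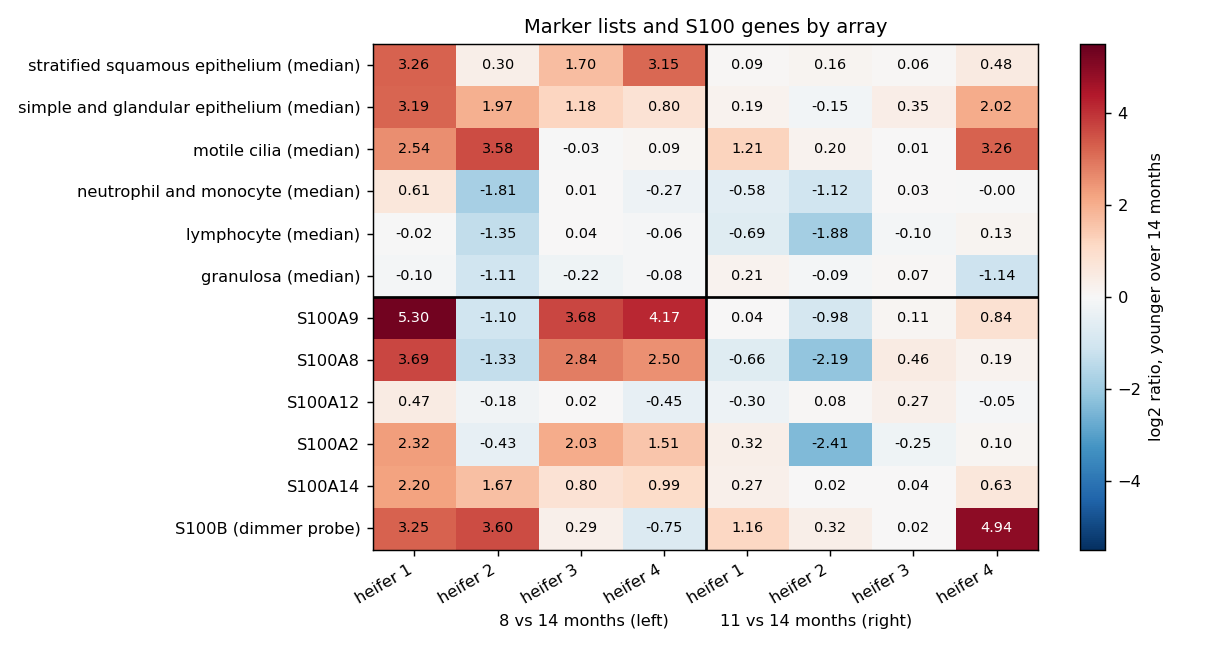
Log2 ratio of the younger age over 14 months, printed and coloured, for the medians of 6 marker lists (upper rows) and for 6 S100 genes (lower rows) on each array (columns). S100A9 stands at 5.30, -1.10, 3.68 and 4.17 at 8 months where the squamous median stands at 3.26, 0.30, 1.70 and 3.15, and the dimmer S100B probe is highest at 11 months where the cilia median is highest (4.94 and 3.26 in heifer 4).

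Of 10 other S100 genes listed, 9 had a probe and 5 were usable, and 2 of these 5 were called as higher at 8 months, against 3.85% of all genes. S100A13, which takes part in the release of growth factors that lack a signal peptide, rose in all 4 heifers by 1.13, 1.54, 1.34 and 1.05 (mean 1.26 ± 0.22, SD, n = 4; limma adjusted p = 0.0244). Its levels were 13.42, 13.98, 13.55 and 13.19 at 8 months and 12.29, 12.44, 12.21 and 12.14 at 14 months, without overlap. The call was lost without heifer 3 (adjusted p = 0.189) and without heifer 4 (adjusted p = 0.101) in limma, with changes of 1.26 and 1.28. Only 0% and 0.159% of all probes were called in those fits, so the losses are not particular to S100A13.

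S100B, best known from glia, had high ratios on certain arrays only. Its brighter probe stood at 4.35, 4.61, 0.99 and -0.24 for 8 over 14 months (mean 2.43 ± 2.43, SD, n = 4; limma adjusted p = 0.0434). Its dimmer probe stood at 3.25, 3.60, 0.29 and -0.75 without passing (limma adjusted p = 0.339). At 11 months the dimmer probe gave 1.16, 0.32, 0.02 and 4.94, and the brighter 2.50, 0.03 and -0.18 in heifers 1 to 3. The brighter spot of heifer 4 was left out as marked in the file, so its fitted value of 0.21 rests on 3 arrays. Motile cilia genes had medians of 2.54, 3.58, -0.03 and 0.09 at 8 months and of 1.21, 0.20, 0.01 and 3.26 at 11 months, high in the same arrays as S100B. All 12 measured of 22 listed cilia genes had a fitted change above 0 at both ages. Over all 10201 genes 5208 were above 0 at 8 months and 5030 at 11 months. Their summed level ran from 3413 to 76561 at 8 months, from 2814 to 37348 at 11 months and from 2754 to 3830 at 14 months. FOXJ1 was above background in 4, 2 and 4 heifers and DNAH9 in 3, 4 and 2. DNAH9 stood at 5.81, 5.55, 0.23 and 0.60 at 8 months and at 4.60, -0.27, 0.39 and 6.08 at 11 months. The ratios of FOXJ1 were smaller, at 0.75, 0.39, -0.02 and 0.02 at 8 months and -0.11, -0.30, 0.38 and 0.16 at 11 months. Without the 8-month arrays of heifers 1 and 2 S100B stood at 1.18 (limma adjusted p = 0.451), and it did not pass without heifer 1 (2.18), heifer 3 (2.12) or heifer 4 (2.91) either. Leaving out heifer 3 or 4 left 0% and 0.159% of all probes called, so those losses are not particular to S100B. It also did not pass without the dye term (2.43, limma adjusted p = 0.117). At 8 months S100B and the cilia genes were high in heifers 1 and 2, which share a dye orientation. Heifer and dye thus cannot be told apart for them at that age.

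The other usable S100 genes, S100A1, S100A5 and S100A16, had fitted changes of -0.06, 0.13 and 0.63 on their brightest probes at 8 months and did not pass. The other S100A16 probes stood at 0.31 and -0.19. S100A3, S100G and S100Z were above background in 0 heifers at any age, and S100A7 in 1, 0 and 1 heifers at 8, 11 and 14 months. S100P had no probe. At 11 months, over the brightest probe of each gene, the smallest p-values belonged to S100A13 (0.21), S100A5 (-0.10) and S100A1 (0.07), with adjusted p from 0.783 to 0.918 in limma. Among the dimmer probes, 1 of S100A16 stood at -0.56 (limma adjusted p = 0.661) and that of S100B had an adjusted p of 0.667.

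Partners and receptors of S100 proteins were followed as a list of 19 genes, of which 18 had a probe and 16 were usable. Limma called 1 of 16 at 8 months, against 4.64% of genes. This was AHNAK, the giant scaffold that S100A10 and annexin A2 tether to the membrane, which rose in all 4 heifers by 1.88, 1.72, 1.75 and 1.28 (mean 1.66 ± 0.26, SD, n = 4; limma adjusted p = 0.0304). The call was lost without heifer 1 (1.56, adjusted p = 0.0525), heifer 3 (1.72, adjusted p = 0.199) or heifer 4 (1.76, adjusted p = 0.0521) in limma. Without heifer 3 or 4 only 0% and 0.159% of all probes were called, so those losses are not particular to AHNAK. Annexin A1, ANXA1, stood at 3.18, 0.92, 1.41 and 1.81 (limma adjusted p = 0.0735), above 0 in every heifer like its partner S100A11. Annexin A2, ANXA2, stood at 1.71, 0.95, -0.12 and 0.67 (limma adjusted p = 0.457), and its partner S100A10 at 0.99, -0.10, 1.88 and 0.93. The list median was 0.42, with 10 of 16 genes above 0, against 5208 of 10201 over all genes.

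Receptors differed in direction without passing in the main fit. The brightest probe of AGER, the receptor of S100A12 and other S100 proteins, gave 1.11, 2.41, 0.45 and 0.46 (limma adjusted p = 0.11), and that of TLR4, a receptor of calprotectin, 0.94, -1.60, -0.28 and -0.64 (limma adjusted p = 0.523). The other kept probe of AGER had a fitted change of 0.40. The scavenger receptor CD36, which binds calprotectin complexes, stood at -2.03, -2.89, -0.90 and 0.45 on its brightest probe (limma adjusted p = 0.0595), while its other probes had fitted changes of -0.21 and -0.22. TLR4 was called when heifer 1 was left out. CD36 was called with no replicate block, with array weights and with only the arrays of the comparison. AGER was also called with only the arrays of the comparison, where 14.3% of all probes were called. At 11 months limma called 0 of 16, with a list median of 0.29. The smallest p-values there belonged to ALCAM (0.58), CD36 (-0.71) and TLR4 (-0.76, below 0 in 4 of 4 heifers), each with an adjusted p of 0.661 in limma.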

How the data were processed

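Per the file headers, the deposited scanner output holds linear intensities of spots and local background at 2 wavelengths, uncorrected and not normalised. The authors' deposited log2 ratios followed Cy5 over Cy3 of the background-subtracted, loess-normalised intensities (r from 0.9995 to 1.000 over probes, slopes from 0.99 to 1.00, column medians from -0.021 to 0.0008), so their scale, centring and direction are known. Image software and the authors' normalisation method are not given in the sources used here. The 22 to 59 spots per array that the files mark were left out.

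R 4.3.3 and limma 3.58.1 were used throughout. Background was removed from median intensities by normexp with an offset of 50 and ratios normalised by loess, with control spots weighted 0. Levels per channel were scaled between arrays with Aquantile. A probe was above background if over the mean plus 2 SD of 153 negative control spots, and 22675 of 43794 probes were kept, being so in at least 3 heifers at 1 or more ages. The model and the random block of the heifer are those in the report (correlation 0.159, 5 residual and 3.71 prior degrees of freedom), with Benjamini-Hochberg adjustment over kept probes. Both comparisons used the same 4 animals per the labels, which pairs the arrays, and deviations from group means correlated at 0.379, 0.277, 0.447 and -0.110 in heifers 1 to 4. The fit was tested on simulated data.

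GEO's platform annotation, which can be out of date, named the genes: a single symbol was given for 21790 probes, several for 0, and 22004 stayed unnamed. Those of 21549 probes matched ARS-UCD2.0 symbols, 1524 after an update. The brightest kept probe stood for a gene. Probe sequences were not used, so cross-hybridisation was not examined. Members and lists were chosen with earlier results of these data known. The genes named were all members, other S100 genes and partners past the threshold or else the 3 with the smallest p, the 5 nearest genes of 1 epithelial and 1 myeloid member, and defining markers. S100B's dimmer probe, ANXA1, ANXA2, AGER and the 8-month values of TLR4 and CD36, S100A1, S100A5 and S100A16 and the neutrophil and monocyte genes above 0 were named after their values were seen. Alternatives covered background, pixel summary, normalisation, the authors' ratios, filters, dye, block, arrays, weights, probe choice and left-out arrays. The granulosa list had medians of -0.14 at 8 and -0.27 at 11 months, over 18 genes with 0 called. Over all genes 4.64% were called at 8 months and 0% at 11 months.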

Additional observations from a re-analysis of the deposited data

Results flagged for a closer look

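In groups of 4 heifers, a value was singled out where its gap to the nearest other passed Dixon's critical share of the range. For 8 over 14 months, S100A4 stood at -1.51 in heifer 2, with the nearest heifer at 2.24. One of 3 S100A16 probes stood at 0.95 in heifer 2 for the same comparison, with the nearest heifer at 0.14. These were 2 of 33 groups examined, and chance singles out about 1 in 20.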

How the results depend on the processing

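Each value was recomputed under up to 16 other settings. At 8 months the main fit called 2 members, with 3.84% of probes called. The 2 members became 1 with mean spot intensities (4.22% of probes) and 7 with array weights (all but S100A12, with 15.6% of probes). They became 0 to 6 when 1 heifer was left out (0% to 7.49% of probes). The 1 partner called became 0 with mean spot intensities and without the 8-month arrays of heifers 1 and 2 (2.8% of probes). It became 2 with median centring (7.54% of probes) and 2 with no replicate block (4.36% of probes). With array weights it became 4 and with only the arrays of the comparison 5 (14.3% of probes), and it became 0 to 2 when 1 heifer was left out. Without the block the members called stayed at 2, S100A11 and S100A14. Without the 8-month arrays of heifers 1 and 2 they were S100A4 (2.18) and S100A9 (3.45), with 2.8% of probes called. S100A9 passed in 4, S100A14 and S100A11 in 12, S100A13 in 13, AHNAK in 11 and S100B in 7 of 16 settings. The settings reused the arrays from which the members were proposed, so nothing is read from how often a member passed or kept its direction. At 8 months every setting kept the mean changes of S100A2, S100A4, S100A8, S100A9, S100A10, S100A11 and S100A14 above 0, with S100A9 between 1.71 and 4.46, S100A8 between 0.79 and 3.01 and S100A11 between 0.72 and 1.72, the lowest of the last without the 8-month arrays of heifers 1 and 2. S100A12 lay between -0.33 and 0.12. The epithelial minus myeloid difference lay between -1.28 and 0.13 when 1 heifer was left out at 8 months, and between -0.21 and 0.28 at 11 months. At 11 months 0 members and 0 partners were called in all 16 settings, and S100A2 lay between -1.34 and 0.14. The causes of these changes were not tested. Dim signal limits S100A12 and the second probe of S100A14, and 4 heifers per comparison limit every value.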

Other observations

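Genes of the plasminogen system, which S100A10 binds to the cell surface, were part of the partner list. The activator gene PLAT had ratios of 5.80, -0.65, 1.51 and 1.33 for 8 over 14 months in heifers 1 to 4, without passing (limma adjusted p = 0.178), and it was called when heifer 2 was left out. The urokinase gene PLAU stood at 2.72, 0.17, 0.40 and -1.17, and the gene of its receptor, PLAUR, at 3.19, -2.05, -0.27 and -2.16. In heifer 1 all 3 ratios were above 2, in the array where S100A9 had its highest ratio. The plasminogen gene PLG was above background in 0 heifers at any age. The probe of MYH9, the myosin bound by S100A4, was so in 1, 1 and 0 heifers at 8, 11 and 14 months. CACYBP, the partner of the unmeasured S100A6, stood at 0.10, -0.06, -0.96 and -0.69. These genes were picked for naming after their values were seen.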
